A study of Mus musculus with 20 samples.

Results

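The NRF2 antioxidant genes examined here are 10 genes: the regulators Nfe2l2 and Keap1, the glutathione synthesis genes Gclc and Gclm, the enzymes Nqo1, Hmox1 and Txnrd1, and the superoxide and peroxide enzymes Sod1, Sod2 and Cat. They were the rows of the count table, 10 of 55416, whose Ensembl identifier carried one of these symbols. RNA was sequenced from the quadriceps of 20 male wild-type C57BL/6J mice aged 26 to 28 months. Control muscle (n = 10) had received a single intramuscular injection of 50 µL saline. Secretome-treated muscle (n = 10) had received 50 µL of secretome, which the authors' methods describe as injected diluted in saline. The secretome is a cell-free product collected from the culture medium of partially differentiated human embryonic stem cells. All mice were fasted for 4 h and the injected muscle was collected 3 h after the injection. Each library is a whole piece of muscle, so its RNA comes from fibers and from every other cell in the tissue.

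NRF2, the protein encoded by Nfe2l2, is a transcription factor that switches on antioxidant genes. In resting cells KEAP1 holds NRF2 in a ubiquitin ligase complex built on CUL3, which marks NRF2 for destruction, and oxidants or electrophiles that modify KEAP1 cysteines let NRF2 escape and bind, with a small MAF protein, at antioxidant response elements in promoters. Skeletal muscle makes superoxide and hydrogen peroxide when it contracts, and the enzymes described here clear them: superoxide dismutases turn superoxide into hydrogen peroxide, and catalase and the glutathione and thioredoxin systems remove the peroxide. Much of the control of NRF2 acts on the protein, which RNA counts do not measure.

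The count table held 13286983 to 22987237 reads a muscle. Muscle identity was plain, with all 10 muscle fiber markers tested and their summed level between 135668 and 335099 CPM (counts scaled to a common library size, here with the TMM method). The library numbers in the labels follow the treatment: libraries 1 to 10 are control and 11 to 20 are secretome. Titin (Ttn) took 7.02% to 11.03% of the counts in libraries 1 to 5, 16.4% to 21.1% in libraries 6 to 15 and 14.2% to 14.7% in libraries 16 to 20. Libraries 6 to 15 are the only range with both treatments, 5 muscles of each. Comparisons are therefore given for all 20 muscles and, where stated, again within that range. A treatment difference given without a range is over all 20 muscles, and it also holds the differences between library ranges. Between libraries 1 to 5 and 16 to 20, treatment and library number cannot be told apart.

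The promoters of the genes were read from RefSeq windows of 250 bases before to 50 bases after each transcription start (mouse build GRCm38.p6). Windows were found for 8 of the 10 symbols, 10 windows in all because Txnrd1 had 3. The core of the antioxidant response element was searched on both strands as TGACNNNGC, which was present in 4071 of 32851 windows (12.4%). It was found in 4 windows of these genes: in Nfe2l2, 240 bases before the start, in Gclm, 134 bases before, in 1 of the 3 Txnrd1 windows, 92 bases before, and in Sod1, 56 bases before. The windows of Keap1, Nqo1, Sod2 and Cat and the other 2 of Txnrd1 did not hold these letters. Sequence outside the windows was not searched, so the element may lie farther from the start of any of these genes. The AP-1 motif TGACTCA, which can overlap the core, was in none of the 10 windows and in 5.202% of all windows. The stretches below show where the match lies in each of the 4 promoters, written 5′ to 3′ along the gene, with the match in capitals on the strand as printed (for Gclm, Txnrd1 and Sod1 the core reads on the opposite strand).
Nfe2l2 (chr2:75704844-75704913, minus strand): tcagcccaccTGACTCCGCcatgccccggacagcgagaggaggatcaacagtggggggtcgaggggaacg
Gclm (chr3:122245393-122245462, plus strand): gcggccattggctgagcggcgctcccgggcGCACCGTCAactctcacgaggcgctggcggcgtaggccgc
Txnrd1 (chr10:82859084-82859153, plus strand): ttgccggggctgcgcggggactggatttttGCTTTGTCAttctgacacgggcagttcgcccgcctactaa
Sod1 (chr16:90220676-90220745, plus strand): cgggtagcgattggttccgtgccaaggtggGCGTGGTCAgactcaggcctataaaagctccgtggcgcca
A match of letters is a description of the sequence and not a measured binding site.

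All 10 genes were expressed in every muscle, with 80 counts or more in each library. Levels between genes were compared as CPM per kilobase, using the union of the exons in GENCODE M21, which may differ from the annotation used for counting. On that scale Cat was highest, with a mean level of 24.9 ± 4.42 (SD over 20 muscles), followed by Sod2 (20.7 ± 3.96), Sod1 (16.4 ± 2.73), Txnrd1 (15.9 ± 4.91), Keap1 (12.9 ± 2.19), Nfe2l2 (12.6 ± 3.21), Nqo1 (11.6 ± 2.93) and Hmox1 (9.14 ± 9.06). The glutamate-cysteine ligase genes were lowest, Gclc at 4.98 ± 0.52 and Gclm at 3.08 ± 0.51 CPM per kilobase, and Gclc exceeded Gclm in 20 of 20 muscles. Cat exceeded Sod2 in 18 muscles and Sod2 exceeded Sod1 in 17, while Sod1 exceeded Txnrd1 in 12, Txnrd1 exceeded Keap1 in 12, Keap1 exceeded Nfe2l2 in 11 and Nfe2l2 exceeded Nqo1 in 13, so the neighbours from Sod1 to Nqo1 were not separated beyond their spread between muscles. Nqo1 exceeded Hmox1 in 16 muscles and Hmox1 exceeded Gclc in 15. The order depended on the length used, as for Sod1 and Cat. The longest coding transcript of Sod1 is 641 bases against 3970 bases for the union of its exons, and scaled to the longest coding transcript of each gene Sod1 was highest, at 101 ± 16.9 CPM per kilobase, above Sod2 at 35.4 ± 6.76, Txnrd1 at 31.1 ± 9.60 and Cat at 24.9 ± 4.42. With the longest transcript of any kind the order was Sod2, Txnrd1, Cat, Nfe2l2, Keap1 and then Sod1, at 16.4 CPM per kilobase.

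None of the 10 genes passed a 5% false discovery rate between secretome-treated and control muscle, where 1 of the 14471 genes tested did (0.00691%). In the same edgeR quasi-likelihood test, 2 genes had an unadjusted p under 0.05, Sod2 and Txnrd1, and both were higher in secretome-treated muscle. Among all tested genes 6.52% were higher and 9.21% lower at that threshold. The log2 fold change was above 0 in 7 of the 10 and in 44.1% of all genes, and its median was 0.13 against -0.035 over all genes. DESeq2 also called 0 of the 10 at 5% and found the same number, 2, at an unadjusted p under 0.05. Over all genes DESeq2 found 3004 at that threshold, and it gave 17982 genes an adjusted p. Within libraries 6 to 15, 0 of the 10 genes passed the false discovery rate (0.0% of 14469 tested) and 0 had an unadjusted p under 0.05, where 5.02% of genes were higher and 4.92% lower. The median log2 fold change of the 10 was 0.040 in that range.

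**Figure D1:**
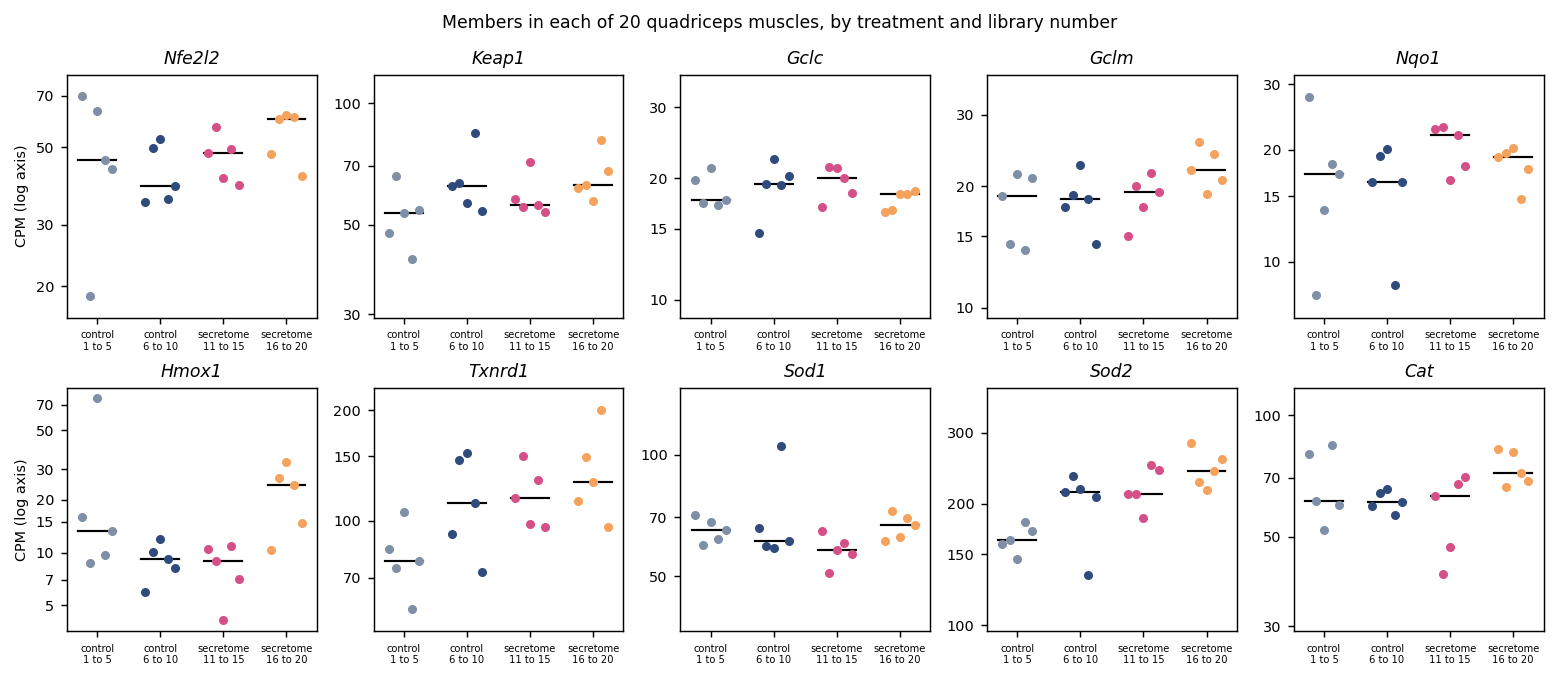
Level of each of the 10 genes in each muscle, in CPM on a log axis, with muscles grouped by treatment and library number (5 per column) and a bar at the median of each column. Sod2 and Txnrd1 have their lowest medians in control libraries 1 to 5, single control muscles stand apart for Nfe2l2 (18.7 CPM), Hmox1 (75.9 CPM) and Sod1 (105 CPM), and Gclc stays between 14.7 and 22.3 CPM throughout.

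Nfe2l2 (ENSMUSG00000015839), which encodes NRF2, measured from 18.7 to 70.1 CPM in control muscle (median 44.7) and from 39.0 to 61.7 CPM in secretome-treated muscle (median 48.7). The ranges overlapped, and control replicate 2 was lowest by a wide margin, the next control muscle being at 34.9 CPM. Secretome over control, the log2 fold change was 0.16 ± 0.17 (SE), with an edgeR adjusted p of 0.657, and it was 0.16 again within libraries 6 to 15, where all 5 secretome-treated muscles lay above the control median (adjusted p = 0.693). Leaving out single muscles moved it between 0.069, without control replicate 2, and 0.25, without control replicate 1.
Keap1 (ENSMUSG00000003308), whose product holds NRF2 for degradation, measured from 41.1 to 84.3 CPM in control muscle (median 55.5) and from 53.7 to 81.1 CPM in secretome-treated muscle (median 59.7). Its log2 fold change was 0.10 ± 0.11 (adjusted p = 0.674). The direction differed by range: within libraries 6 to 15 it was -0.11 (adjusted p = 0.750), with 4 of 5 secretome-treated muscles below the control median, and between libraries 1 to 5 and 16 to 20 it was 0.33 (unadjusted p = 0.0429, adjusted p = 0.292), with all 5 above. The log2 ratio of Nfe2l2 to Keap1 averaged -0.42 ± 0.72 (SD) in control and -0.31 ± 0.30 in secretome-treated muscle, so its spread covered the gap.

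Glutamate-cysteine ligase makes the dipeptide from which glutathione is built, and Gclc encodes its catalytic subunit and Gclm its modifier subunit. Gclc (ENSMUSG00000032350) was the steadiest of the 10, from 14.7 to 22.3 CPM in control muscle (median 19.3) and from 16.5 to 21.4 CPM in secretome-treated muscle (median 18.3), with coefficients of variation of 11.8% and 9.37%. Its log2 fold change was -0.020 ± 0.079 (95% interval -0.18 to 0.14, adjusted p = 0.919), and 0.045 within libraries 6 to 15 (adjusted p = 0.907).
For Gclm (ENSMUSG00000028124) the range was 13.9 to 22.5 CPM in control muscle (median 18.7) and 15.1 to 25.7 CPM in secretome-treated muscle (median 20.4). Secretome-treated muscles lay above the control median in 8 of 10 cases, and the log2 fold change was 0.17 ± 0.10 (adjusted p = 0.419). In libraries 6 to 15 alone it was 0.036 (adjusted p = 0.934). The log2 ratio of Gclc to Gclm averaged 0.066 ± 0.24 (SD) over the control muscles and -0.13 ± 0.28 over the secretome-treated ones. The lower secretome value came from libraries 16 to 20, at -0.33 ± 0.22, since libraries 11 to 15 averaged 0.067 ± 0.16 and control libraries 6 to 10 averaged 0.054 ± 0.28.

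Nqo1 (ENSMUSG00000003849) encodes a quinone reductase that is a standard readout of NRF2 activity in many tissues. It measured from 8.14 to 27.7 CPM in control muscle (median 16.8) and from 14.7 to 22.99 CPM in secretome-treated muscle (median 19.4). Control replicates 2 and 9, at 8.14 and 8.66 CPM, were the lowest muscles, and the secretome-treated muscles were the tighter group, with a coefficient of variation of 13.9% against 34.2%. Its log2 fold change was 0.22 ± 0.16 (adjusted p = 0.506) over all muscles and 0.35 ± 0.19 within libraries 6 to 15 (unadjusted p = 0.0863, adjusted p = 0.548), the largest value of the 10 in that range. All 5 secretome-treated muscles of that range exceeded the control median, and without control replicate 9 the value was 0.20.

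Hmox1 (ENSMUSG00000005413) encodes heme oxygenase-1, which breaks down heme and is strongly inducible. It was the most variable of the 10, from 5.99 to 75.9 CPM in control muscle (median 9.89) and from 4.12 to 33.1 CPM in secretome-treated muscle (median 10.7). Control replicate 3 was at 75.9 CPM and the other 9 control muscles were between 5.99 and 15.9 CPM. In libraries 16 to 20 the 5 secretome-treated muscles measured 10.4, 26.8, 33.1, 24.2 and 14.7 CPM, and libraries 11 to 15 lay between 4.12 and 10.9 CPM. The log2 fold change was -0.16 ± 0.46 (95% interval -1.13 to 0.80, adjusted p = 0.887) and -0.11 within libraries 6 to 15 (adjusted p = 0.882). Over all muscles its sign rested on 1 muscle and on the fit. Without control replicate 3 the log2 fold change was 0.55 (edgeR unadjusted p = 0.0946). With the replicate number as a block, which keeps that muscle, it was 0.19.
Blood cell markers moved with some of these values, and in bulk tissue fewer cells of a type and less RNA per cell cannot be told apart. The summed level of the 10 neutrophil markers was 96.2 CPM in control replicate 3, 57.5 CPM in secretome replicate 7 and 106 CPM in secretome replicate 8, and at most 21.7 CPM in the other 17 muscles. Only 4 of those markers had enough counts to be tested, and Ly6g, Mpo, Elane, Ngp, Camp and Retnlg did not. The summed red blood cell markers were 1377, 559 and 943 CPM in the same 3 muscles, while secretome replicate 9, with 24.2 CPM of Hmox1, had 103 CPM of them. Secretome replicate 3 had 666 CPM of red blood cell markers and the lowest Hmox1, 4.12 CPM. The summed macrophage markers averaged 127, 83.1, 50.7 and 98.9 CPM in libraries 1 to 5, 6 to 10, 11 to 15 and 16 to 20, where Hmox1 averaged 24.7, 9.09, 8.33 and 21.8 CPM. The first Hmox1 mean includes control replicate 3, at 75.9 CPM. By median the macrophage sums were 109, 77.9, 51.6 and 112 CPM, and Hmox1 was at 13.3, 9.16, 9.03 and 24.2 CPM. Without those 3 muscles the log2 fold change of Hmox1 was 0.14 (unadjusted p = 0.601), and beyond that the part of blood cells and macrophages in its level was not tested.

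Txnrd1 (ENSMUSG00000020250), the cytosolic thioredoxin reductase, keeps thioredoxin reduced with electrons from NADPH. It measured from 57.8 to 153 CPM in control muscle (median 88.0) and from 96.2 to 200.01 CPM in secretome-treated muscle (median 122). All 10 secretome-treated muscles lay above the control median, although 4 control muscles, at 106, 146, 153 and 112 CPM, lay inside the secretome range. Its mean was 97.6 ± 31.7 CPM (SD) in the control group and 128 ± 32.3 CPM in the secretome group. The log2 fold change was 0.39 ± 0.17 (95% interval 0.041 to 0.73, unadjusted p = 0.0301, adjusted p = 0.271). The unadjusted p stayed under 0.05 in 13 of the 20 fits that left out 1 muscle, with log2 fold changes of 0.29 to 0.48. It was above 0.05 without control replicate 2, 4, 5 or 10 or secretome replicate 2, 7 or 9, and was 0.0691 without the 3 muscles with high neutrophil markers. Within libraries 6 to 15 the log2 fold change was 0.045 (95% interval -0.38 to 0.47, adjusted p = 0.945), and 3 of 5 secretome-treated muscles were above the control median. Control libraries 1 to 5 were the low set, with a median of 77.7 CPM against 112, 116 and 128 CPM in the other 3 sets of 5.

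Superoxide dismutase 2, encoded by Sod2 (ENSMUSG00000006818), works in the mitochondrial matrix. It measured from 133 to 235 CPM in control muscle (median 176) and from 185 to 282 CPM in secretome-treated muscle (median 234). All 10 secretome-treated muscles were above the control median and the groups overlapped between 185 and 235 CPM. The means were 183 ± 33.9 CPM (SD) in the control group and 233 ± 28.0 CPM in the secretome group. The log2 fold change was 0.35 ± 0.10 (95% interval 0.13 to 0.56, unadjusted p = 0.00267, adjusted p = 0.158). This was the smallest p of the 10 genes, at place 241 of the 14471 tested. Leaving out any single muscle kept the unadjusted p under 0.05 in 20 of 20 fits, with log2 fold changes of 0.31 to 0.39, and the adjusted p in DESeq2 was 0.0570. Within libraries 6 to 15 the log2 fold change was 0.14 (95% interval -0.17 to 0.45, unadjusted p = 0.349, adjusted p = 0.734), and 2 of 5 secretome-treated muscles were above the control median. That value leaned on control replicate 9, at 133 CPM, since without it the log2 fold change was 0.024.
Sod1 (ENSMUSG00000022982) encodes the cytosolic copper-zinc superoxide dismutase. It measured from 58.8 to 105 CPM in control muscle (median 63.4) and from 51.0 to 72.7 CPM in secretome-treated muscle (median 61.7). Control replicate 9, the muscle with the lowest Sod2, was the one at 105 CPM, and the next control muscle was at 70.8 CPM. Its log2 fold change was -0.12 ± 0.10 (adjusted p = 0.574) over all muscles and -0.25 within libraries 6 to 15 (adjusted p = 0.574), and without control replicate 9 these values were -0.023 and -0.063. The log2 ratio of Sod2 to Sod1 averaged 1.43 ± 0.48 (SD) in control and 1.89 ± 0.20 in secretome-treated muscle. By set it averaged 1.33 ± 0.19 and 1.53 ± 0.68 in control libraries 1 to 5 and 6 to 10. The secretome sets, libraries 11 to 15 and 16 to 20, averaged 1.91 ± 0.21 and 1.87 ± 0.22. In control libraries 6 to 10 the ratio ran from 0.34, in control replicate 9, to 1.98 (median 1.76), against 1.67 to 2.10 in secretome libraries 11 to 15, so the ranges overlapped.
Cat (ENSMUSG00000027187) encodes catalase, the peroxisomal enzyme that splits hydrogen peroxide. It measured from 51.9 to 84.6 CPM in control muscle (median 61.1) and from 40.4 to 82.6 CPM in secretome-treated muscle (median 68.1). The log2 fold change was 0.031 ± 0.12 (95% interval -0.21 to 0.27, adjusted p = 0.915), and -0.077 within libraries 6 to 15 (adjusted p = 0.862). The 2 lowest muscles of all, at 40.4 and 47.0 CPM, were secretome replicates 2 and 3.

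The difference between ranges was tested directly, since Sod2 and Txnrd1 stood higher over all muscles than within libraries 6 to 15, where their log2 fold changes were 0.14 and 0.045. Between libraries 1 to 5 and 16 to 20, 3 of the 10 genes were higher at an unadjusted p under 0.05 (6.53% of the 14667 genes tested there), namely Sod2, Txnrd1 and Keap1, and 0 passed the false discovery rate (0.0%). Sod2 was the 1 gene of the 10 whose groups did not overlap, from 146 to 181 CPM in control libraries 1 to 5 and from 217 to 282 CPM in secretome libraries 16 to 20, as did 2.46% of all genes in that direction. Its log2 fold change there was 0.58 (unadjusted p = 0.000369, adjusted p = 0.103), and that of Txnrd1 was 0.78 (unadjusted p = 0.00224, adjusted p = 0.133). The log2 fold change within libraries 6 to 15 less that between the outer libraries was -0.75 ± 0.30 for Txnrd1, -0.46 ± 0.20 for Keap1 and -0.45 ± 0.19 for Sod2. These 3 had unadjusted p-values of 0.0217, 0.0287 and 0.0250, a threshold that 5.51% of all genes passed in that direction, and 0 of the 10 passed the false discovery rate, which 8 genes (0.0553%) did (lowest edgeR adjusted p of the 10 = 0.343). Leaving out 1 muscle at a time, a choice made after the data were seen, kept the unadjusted p under 0.05 in 18 of 20 fits for Txnrd1, 17 for Sod2 and 16 for Keap1. Muscle fiber and fibroblast markers moved with these ranges. The summed level of the muscle fiber markers was 135668 to 199469 CPM in control libraries 1 to 5 and at least 218962 CPM in every other muscle. That of the 6 fibroblast and fibro-adipogenic progenitor markers was 695 to 999.6 CPM in control libraries 1 to 5 and at most 617 CPM in every other muscle. Their part in the Sod2, Txnrd1 and Keap1 values was not tested beyond the comparison within libraries 6 to 15.

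**Figure D2:**
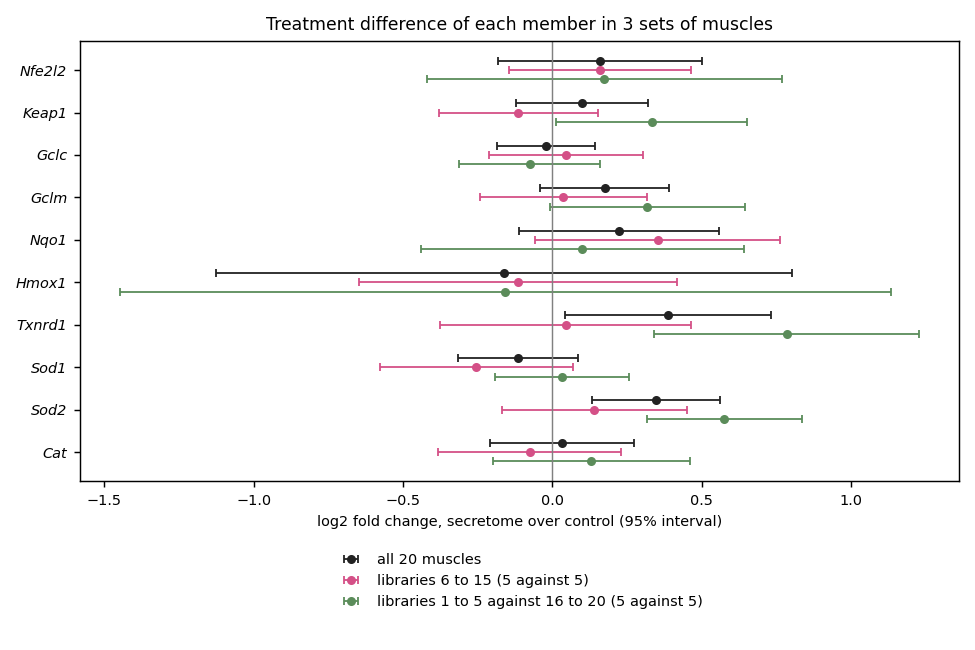
Log2 fold change of each of the 10 genes, secretome over control, with 95% intervals, in all 20 muscles (black), within libraries 6 to 15 (pink, 5 against 5) and between libraries 1 to 5 and 16 to 20 (green, 5 against 5). The intervals of Sod2 and Txnrd1 exclude 0 in all muscles and between the outer libraries and include 0 within libraries 6 to 15, and the intervals of Hmox1 are the widest.

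Variation between muscles was then compared among the genes, after the mean of each of the 4 sets of 5 muscles (control and secretome, by range) was subtracted from the log2 CPM. Of the 45 pairs, 28 had a positive Pearson r, the median r was 0.0852, and 3 pairs had a Benjamini-Hochberg adjusted p under 0.05 in a two-sided permutation test within those sets with 100000 resamples. Gclm and Txnrd1 varied together over the 20 muscles (r = 0.689, p = 0.00155, adjusted p = 0.0362 by permutation), with a Spearman rho of 0.768 (p = 0.00031, adjusted p = 0.0139 by permutation). The correlation was 0.715 in libraries 6 to 15, 0.669 in the other 10 muscles, and 0.561 without control replicates 4 and 10, the muscles farthest from the median of Gclm.
Hmox1 and Txnrd1 also varied together (r = 0.618, p = 0.00266, adjusted p = 0.0399, and rho = 0.687, adjusted p = 0.0192, by permutation), with r = 0.589 without control replicate 3 and secretome replicate 6. Keap1 and Nqo1 varied in opposite directions (r = -0.771, p = 0.00161, adjusted p = 0.0362, and rho = -0.638, adjusted p = 0.0586, by permutation). Control replicates 2 and 9 had the highest Keap1 of their sets of 5, at 65.9 and 84.3 CPM, and the lowest Nqo1, and without them r was -0.563. The same muscles had the lowest summed muscle fiber markers of their sets, 135668 and 245595 CPM, and the highest TMM factors, 1.21 and 1.06, whose part in the correlation was not tested.
Nfe2l2 and Nqo1 had r = 0.723 (adjusted p = 0.0965 by permutation), which dropped to 0.363 without control replicates 1 and 2. Nfe2l2 and Txnrd1 had r = 0.518 (adjusted p = 0.129 by permutation) but rho = 0.737 (adjusted p = 0.0192 by permutation), and r was 0.781 without the same 2 muscles. Sod2 and Sod1 had r = -0.737 (adjusted p = 0.186 by permutation), which was -0.379 without control replicates 8 and 9. By rho, Nfe2l2 also varied with Hmox1 (rho = 0.701, adjusted p = 0.0192 by permutation, with r = 0.629 and an adjusted p of 0.236). By r alone 11 of the 45 pairs had an unadjusted p under 0.05.

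**Figure D3:**
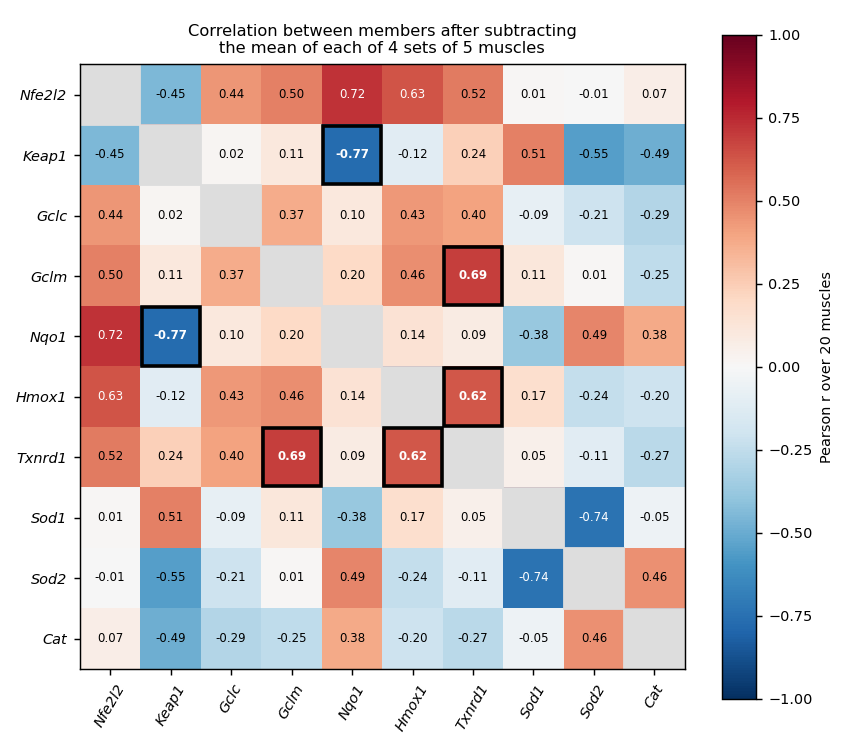
Pearson r of each pair of the 10 genes over 20 muscles, computed on log2 CPM after subtracting the mean of each of 4 sets of 5 muscles, from blue (negative) to red (positive). The 3 framed pairs, Gclm with Txnrd1 (0.689), Hmox1 with Txnrd1 (0.618) and Keap1 with Nqo1 (-0.771), had an adjusted p under 0.05.

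Against 13172 genes with a mean of at least 1 CPM, the closest patterns over the 20 muscles, by Pearson r on the same scale and as a description, were as follows. Txnrd1 was closest to Osgin1 (r = 0.919), Srxn1 (0.917) and Pfkfb4 (0.915), and these stayed between 0.884 and 0.901 without the 2 muscles farthest from the median of Txnrd1. Hmox1 was closest to Ccl7 (0.912), Irgm2 (0.903) and Lrrc32 (0.900). For Sod2 the leading genes were Pex11a (0.924), Uqcrc2 (0.894) and Rgs5 (0.880), for Cat they were Acadl (0.820), Hsdl2 (0.781) and Cd59a (0.768), and for Nfe2l2 they were Srpk2 (0.907), Pde4b (0.905) and Jmjd1c (0.902). Keap1 was closest to Cdc34 (0.947) and Nqo1 to Taf9b (0.958). The weakest leading value was that of Gclc, 0.747 with Zfp362. Without the 2 muscles farthest from the median of each member, r was 0.770 to 0.851 for Hmox1 and 0.769 to 0.823 for Sod2. It was 0.659 to 0.774 for Cat and 0.701 to 0.891 for Nfe2l2. For Cdc34, Taf9b and Zfp362 it was 0.907, 0.895 and 0.661. The points share depth and scaling, and each list was picked as the highest of all genes.

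The other genes of the pathway were described from lists that hold 85 genes, of which 82 were tested. Of 14 partners and regulators of NRF2, 3 were higher and 1 lower in secretome-treated muscle at an unadjusted p under 0.05, against 6.52% and 9.21% of all genes. Cul3, the scaffold of the ligase that KEAP1 feeds, measured 210 ± 46.6 CPM in control and 264 ± 39.7 CPM in secretome-treated muscle (log2 fold change 0.33, edgeR adjusted p = 0.214), and Fyn, a kinase linked to export of NRF2 from the nucleus, had a log2 fold change of -0.32 (adjusted p = 0.228). The other 2 higher genes, named after their values were seen, were Bach1, a repressor at antioxidant response elements (0.25, adjusted p = 0.271), and Gsk3b, a kinase upstream of NRF2 degradation (0.17, adjusted p = 0.272). Within libraries 6 to 15, 0 of the 14 had an unadjusted p under 0.05, and Cul3 had a log2 fold change of 0.24 (adjusted p = 0.598).

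Of 22 further NRF2 target genes that were tested, of 24 listed, 1 was higher and 3 were lower at an unadjusted p under 0.05, against 6.52% and 9.21% of all genes, and their median log2 fold change was -0.015. In libraries 6 to 15 alone, 0 were higher and 1 was lower, against 5.02% and 4.92% of all genes. Blvrb, which encodes biliverdin reductase B, was lowest relative to control, at 4.07 ± 2.22 CPM in control and 2.04 ± 0.69 CPM in secretome-treated muscle (log2 fold change -0.99, edgeR adjusted p = 0.144). It was 1 of the genes that DESeq2 called (adjusted p = 0.0399), and within libraries 6 to 15 its log2 fold change was -0.55 (edgeR adjusted p = 0.635). Tkt, the pentose phosphate enzyme transketolase, had a log2 fold change of -0.32 (adjusted p = 0.184). Me1 (0.30, adjusted p = 0.207) and G6pdx (-0.43, adjusted p = 0.283), both of which make NADPH, were the remaining genes under that threshold, G6pdx being named after its value was seen. Srxn1 and Osgin1, the genes closest to Txnrd1 in pattern, had log2 fold changes of 0.30 (adjusted p = 0.645) and 0.024 (adjusted p = 0.9752), and within libraries 6 to 15 of -0.26 and -0.090. Slc7a11, the cystine transporter gene, and Ptgr1 had too few counts to be tested.

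Of 22 tested genes of glutathione use and transport, 1 was higher and 2 were lower at an unadjusted p under 0.05, against 6.52% and 9.21% of all genes, and 6 of the 22 had a log2 fold change above 0, against 44.1%. Glrx2, a mitochondrial glutaredoxin, measured 17.7 ± 3.29 CPM in control and 22.6 ± 2.30 CPM in secretome-treated muscle (log2 fold change 0.35, adjusted p = 0.153). Gpx3, the secreted glutathione peroxidase, had a log2 fold change of -0.57 (adjusted p = 0.161) and of -0.41 within libraries 6 to 15 (adjusted p = 0.452). In that range 2 of 21 tested genes were lower at an unadjusted p under 0.05, against 4.92% of all genes. They were Gpx3 and Slc3a2, an amino acid transporter subunit (-0.37, adjusted p = 0.450). In the thioredoxin and peroxiredoxin list 0 of 15 genes passed an unadjusted p of 0.05 in either tool over all muscles, with Txn2, the mitochondrial thioredoxin, at -0.26 (adjusted p = 0.352) and Prdx3, a mitochondrial peroxiredoxin, at -0.19 (adjusted p = 0.496). Within libraries 6 to 15, 1 of the 15 was lower, against 4.92% of all genes, and it was Prdx6 at -0.24 (adjusted p = 0.452). Of 7 tested NADPH supply genes, 1 was higher over all muscles (Me1) and 2 were lower (Tkt and G6pdx), against 6.52% and 9.21% of all genes. Among 9 genes of heme and iron handling, 0 were higher and 2 were lower against the same shares of all genes, Blvrb and Hmox2, the constitutive heme oxygenase, which measured 33.7 ± 9.97 CPM in control and 25.0 ± 2.24 CPM in secretome-treated muscle (log2 fold change -0.43, adjusted p = 0.158). Sod3, the extracellular superoxide dismutase, had a log2 fold change of -0.58 (unadjusted p = 0.0219, adjusted p = 0.247) and Ccs, the copper chaperone of SOD1, of -0.29 (adjusted p = 0.505). At an unadjusted p under 0.05 within libraries 6 to 15, 0 of the 7 NADPH supply genes were higher and 1 was lower, against 5.02% and 4.92% of all genes. For heme and iron handling, and for Sod3 and Ccs, both counts were 0 in that range.

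**Figure D4:**
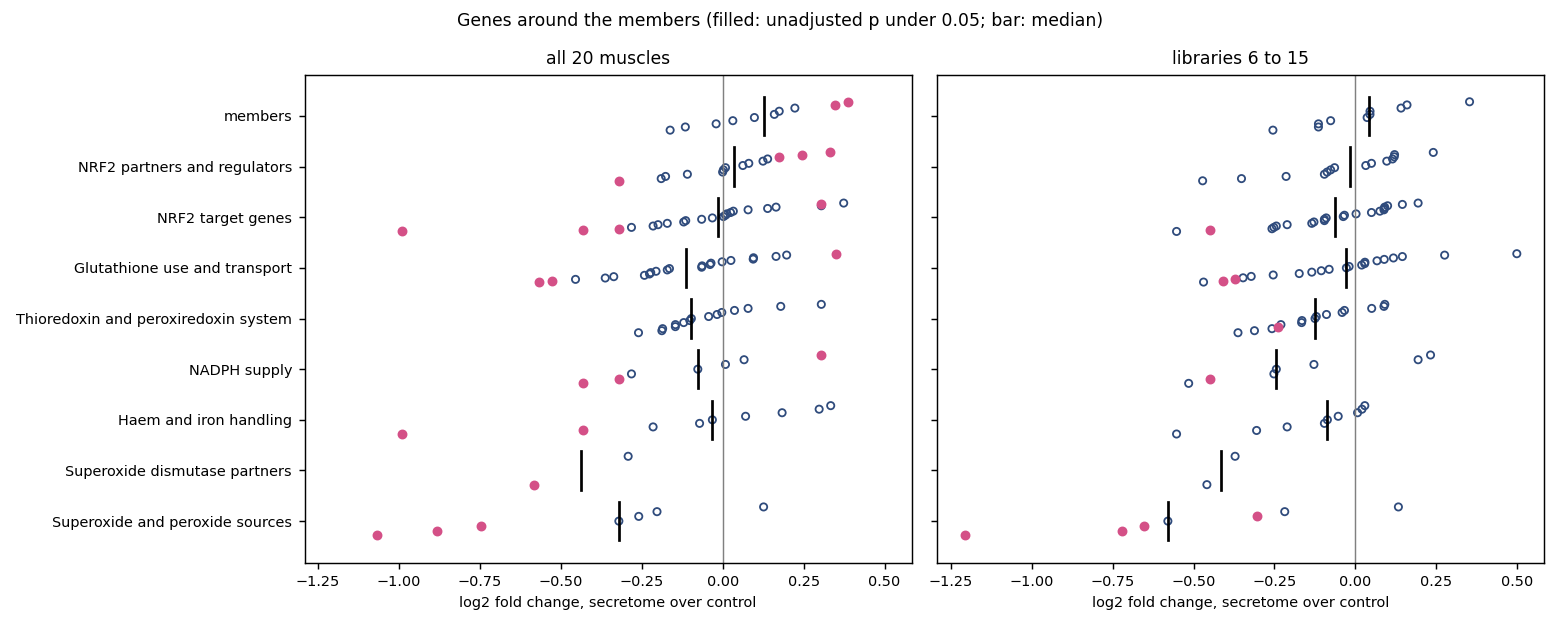
Log2 fold change, secretome over control, of the 10 genes (top row, members) and of every tested gene of 8 lists around them, over all 20 muscles (left) and within libraries 6 to 15 (right). Filled points have an unadjusted p under 0.05, bars mark the median of each list, and the superoxide and peroxide sources have medians of -0.32 and -0.58, against -0.44 and -0.42 for the 2 superoxide dismutase partners.

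The genes that make superoxide and hydrogen peroxide were also listed, 7 in all. At an unadjusted p under 0.05, 3 of the 7 were lower and 0 were higher over all muscles, where 9.21% of all genes were lower and 6.52% higher, and within libraries 6 to 15, 4 were lower and 0 were higher, where 4.92% of all genes were lower. With a term for library ranges, which leaves only libraries 6 to 15 to estimate the treatment difference, the first count was 1. Without control replicate 8 or secretome replicate 1 the second was 1 or 2. By edgeR none passed the false discovery rate in either comparison. Cyba, which encodes the p22phox subunit shared by several NADPH oxidases, measured from 3.02 to 13.8 CPM in control muscle (median 4.85) and from 1.40 to 5.34 CPM in secretome-treated muscle (median 2.40). Its log2 fold change was -1.07 ± 0.28 (adjusted p = 0.134) over all muscles and -1.21 ± 0.30 (adjusted p = 0.404) within libraries 6 to 15, where the groups did not overlap, with control at 3.02 to 8.93 CPM and secretome at 1.40 to 2.93 CPM, as did 1.09% of all genes in that direction. DESeq2 called Cyba in both comparisons (adjusted p = 0.0258 and 0.0483). Ncf1 and, named after its value was seen, Cybb, further subunits of the phagocyte oxidase, had log2 fold changes of -0.88 and -0.75 (adjusted p = 0.192 and 0.207), and within libraries 6 to 15 of -0.72 and -0.65. Xdh, xanthine dehydrogenase, was the fourth gene within that range, at -0.30 (adjusted p = 0.452).
Macrophage markers moved with these genes. All 10 had a log2 fold change below 0 in both comparisons, with medians of -0.56 and -0.86, against -0.035 and -0.014 over all tested genes. Over all muscles 44.1% of all genes were above 0. At an unadjusted p under 0.05, 5 of the 10 were lower over all muscles, against 9.21% of all genes. Within libraries 6 to 15, 6 were, against 4.92%. DESeq2 called Csf1r over all muscles (adjusted p = 0.0466) and C1qb within libraries 6 to 15 (adjusted p = 0.0032). Between libraries 1 to 5 and 16 to 20, 9 of the 10 were below 0, with a median of -0.40 against -0.053 over all tested genes. Their summed level ranged from 55.2 to 177 CPM in control and from 44.6 to 128 CPM in secretome-treated muscle, and none of the 10 was at 0 in every muscle. The part of macrophages in the oxidase values was not tested.

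**Figure D5:**
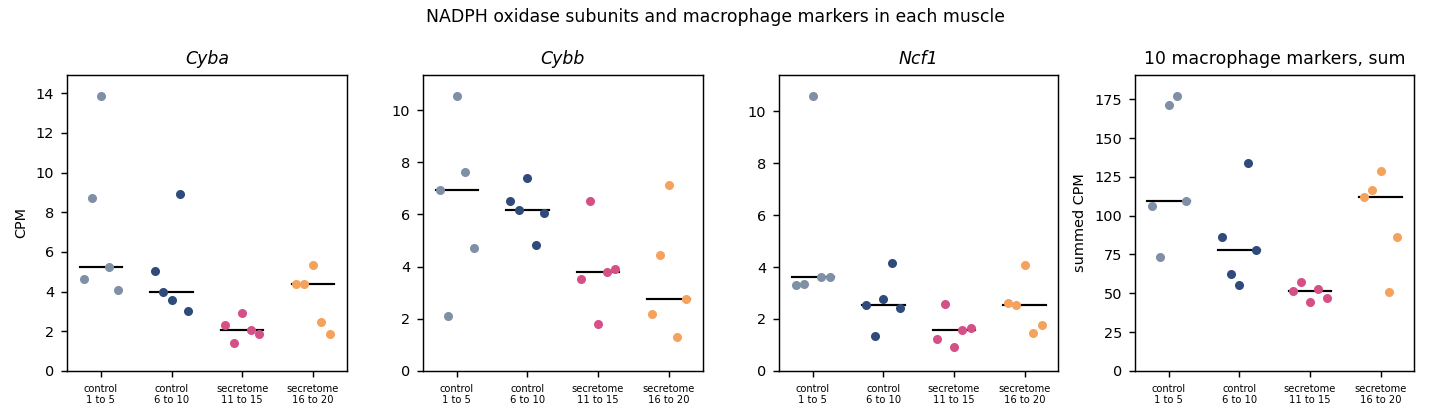
Level of the NADPH oxidase subunit genes Cyba, Cybb and Ncf1 (CPM) and summed level of 10 macrophage markers (summed CPM) in each muscle, by treatment and library number (5 per column), with a bar at each median. In libraries 11 to 15 the secretome-treated muscles lie at 1.40 to 2.93 CPM of Cyba and 44.6 to 57.3 summed CPM of macrophage markers, and in control libraries 6 to 10 at 3.02 to 8.93 and 55.2 to 134 CPM.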

How the data were processed

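The authors prepared stranded total RNA libraries depleted of ribosomal RNA from 20 muscles, sequenced them in pairs and deposited raw counts, whole numbers of reads per Ensembl gene, without normalization. The submitters' processing notes name STAR 2.7.9a, cutadapt 1.16, featureCounts 1.6.3, DESeq2 1.34.0 and the build GRCm39. Counts were filtered with filterByExpr in edgeR 4.0.16 (R 4.3.3), which kept 14471 of 55416 genes, scaled with TMM and compared by the quasi-likelihood test in its robust form on treatment alone, and p-values were adjusted by Benjamini-Hochberg over all tested genes. The fit was repeated on libraries 6 to 15 and on the outer libraries, and the difference between these effects was tested in a fit of 4 groups of 5. Log2 CPM used a prior count of 2. Nothing in the labels says beyond numbered muscles how replicates were kept apart, so p-values measure the spread between these samples. The procedure was tested on simulated counts that held no differences between library ranges, so that test does not cover their effect. Members, gene lists and comparisons were chosen with earlier results of these data known. Every member was named. Of each pathway list the 2 genes with the smallest p were named, and of each member's closest patterns the first 3 or fewer. Alternatives were DESeq2 1.42.0, RLE scaling, no filter, the replicate number as a block, a term for library ranges and each muscle left out. With the term for library ranges, the treatment difference is estimated in libraries 6 to 15 only. One symbol, Nnt, matched 2 identifiers and was not counted.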

Additional observations from a re-analysis of the deposited data

Results flagged for a closer look

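Of 20 groups of 10 muscles tested for a value far from the others (each gene in control and in secretome-treated muscle, by the gap to the nearest muscle as a share of the range), 3 were set apart, where chance gives about 1. In control replicate 2 the log2 CPM of Nfe2l2 was 4.23, against 5.13 in the next lowest control muscle. Control replicate 3 had a log2 CPM of Hmox1 of 6.25, against 4.00 in the next highest, and its summed neutrophil markers were 96.2 CPM. Control replicate 9 had a log2 CPM of Sod1 of 6.72 and the lowest Sod2 of all muscles, 133 CPM.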

How the results depend on the processing

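The number of the 10 genes past a 5% false discovery rate was 0 under every alternative run, in both comparisons. The number at an unadjusted p under 0.05 over all muscles was 2 in the reported fit. It was 1 without the muscles with high neutrophil markers (chosen after the data were seen) and 1 to 3 with single muscles left out. With a term for library ranges, a fit in which only libraries 6 to 15 estimate the treatment difference, it was 0. Within libraries 6 to 15 it was 0 to 1 with single muscles left out. Over all genes, 1 passed in the reported fit and 0 to 15 with single muscles left out. With the replicate block 0 passed, and 0 with a term for library ranges. DESeq2 called 213 of the 17982 genes that it gave an adjusted p (67 higher and 146 lower). Within libraries 6 to 15, 0 passed in the reported fit, 11 without a filter on low counts and 0 to 2 with single muscles left out. In that range DESeq2 called 37 of the 15390 genes with an adjusted p. The difference between ranges gave 8 genes, and 1 to 9 with single muscles left out. The causes were not tested.

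Log2 fold changes that changed sign were small, apart from Hmox1. With a term for library ranges, and so from libraries 6 to 15 only, Keap1 was at -0.13, Gclc at 0.034 and Cat at -0.089. Without the muscles with high neutrophil markers, Gclc was at 0.021, Hmox1 at 0.14 and Cat at -0.043. With the replicate block, Hmox1 was at 0.19. With single muscles left out, the values over all muscles spanned -0.056 to 0.0094 for Gclc, -0.37 to 0.55 for Hmox1 and -0.0090 to 0.093 for Cat, and within libraries 6 to 15 they spanned -0.20 to 0.0025 for Keap1, -0.040 to 0.11 for Gclc, -0.037 to 0.12 for Gclm, -0.24 to 0.049 for Hmox1, -0.079 to 0.17 for Txnrd1 and -0.16 to 0.031 for Cat.

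Same-numbered control and secretome muscles did not deviate together from their treatment means (correlations of -0.24 to 0.221, 2 of 10 above 0.1). These deviations also hold the differences between library ranges, so the check cannot decide whether the numbers pair the muscles. The replicate block left the 10 genes at 0 past the false discovery rate and 2 at an unadjusted p under 0.05. Lengths from GENCODE M21 limit the order of levels between genes. With 5 muscles a group, the intervals within libraries 6 to 15 include the values found over all muscles for Sod2 and Txnrd1.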
